A study of Mus musculus and Homo sapiens with 12 samples.

Results

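The 9 genes described here encode the plasminogen activators and the matriptase system: the urokinase gene PLAU, its receptor gene PLAUR, the tissue activator gene PLAT, the serpin genes SERPINE2 and SERPINB2, the membrane protease genes ST14 and PRSS8, and the Kunitz inhibitor genes SPINT1 and SPINT2. They were chosen by gene symbol, compared in capitals, from the authors' comparison tables of 2 liver metastasis models. All 9 were found among the 23201 genes of the mouse table and 8 among the 18190 genes of the human table. SERPINB2 has no row in the human table, and its level there was not analysed here.

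The mouse pancreatic cancer line KPC was set against KPC LM2, a liver metastatic line of generation 2 made from it. PANC1, an established human pancreatic carcinoma line, was set against its liver metastatic line of generation 3, PANC1 LM3. Each of the 4 groups has 3 biological replicates, and the labels give genotype WT for all of them. For every group, 500000 cells were given into the spleen, with day 1 as the day of injection, and RNA was taken from liver tumours on day 21. The labels name neither the host animals nor their age, and they do not say whether tumour cells were separated from liver tissue. The sample titles speak of cells and the protocol of tumours. RNA sequencing was reported as 1 table per model that gives a gene its mean count over libraries (counts divided by size factors), a log2 fold change and a test. Values of single libraries are not among the columns, so each sample's depth is unknown and no gene can be shown sample by sample. Neither table names the group in the numerator. A positive or negative value is therefore given as listed and assigned to neither line, and relations between genes within a table, which hold whichever group is the numerator, carry the description.

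Urokinase and tissue-type plasminogen activator cut plasminogen into plasmin, a serine protease that degrades fibrin and activates other matrix-degrading enzymes. Urokinase works mainly at the cell surface, held there by its receptor, and serpins trap both activators in complexes that cells take up. Matriptase, the product of ST14, is a transmembrane serine protease of epithelial cells that can activate pro-urokinase, the precursor of hepatocyte growth factor and prostasin. Hepatocyte growth factor activator inhibitors of the Kunitz type, encoded by SPINT1 and SPINT2, block matriptase and prostasin.

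Promoter sequence is shown first for Plaur, Spint1 and Spint2. These 3 members had a positive listed value in KPC and have an entry in the RefSeq promoter table. Spint2 did not pass the authors' test there (Wald test adjusted p = 0.10). Plaur passed only on the scale as deposited, as described below, so the 3 are not shown as a group that moved together. The table matched 5 members over 6 windows, Serpine2 and Serpinb2 being the others. Sequences are from RefSeq on GRCm38.p6, another build than the mm39 that the submitters' processing notes name, and only the 250 bases before the start are used. Each is written 5′ to 3′ on the gene's strand in lower case. Capitals mark matches to TGANTCA, where N is any base, or to CAGGTG, each searched on both strands. The core bound by AP-1 factors has C or G at N, so TGANTCA also takes in sequences other than that core. CAGGTG is an E-box bound by zinc finger repressors of the SNAIL and ZEB families. The windows are chr7:24462233-24462482 on the + strand for Plaur, chr2:119237110-119237359 on the + strand for Spint1 and chr7:29281978-29282227 on the - strand for Spint2.
Plaur: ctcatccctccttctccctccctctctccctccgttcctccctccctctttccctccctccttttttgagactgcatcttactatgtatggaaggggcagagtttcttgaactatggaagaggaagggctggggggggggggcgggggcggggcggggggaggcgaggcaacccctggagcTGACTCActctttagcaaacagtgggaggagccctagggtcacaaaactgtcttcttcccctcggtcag
Spint1: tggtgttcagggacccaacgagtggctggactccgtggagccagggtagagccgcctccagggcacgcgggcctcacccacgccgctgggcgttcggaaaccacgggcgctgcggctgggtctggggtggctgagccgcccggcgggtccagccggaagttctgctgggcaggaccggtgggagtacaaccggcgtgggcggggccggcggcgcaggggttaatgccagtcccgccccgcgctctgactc
Spint2: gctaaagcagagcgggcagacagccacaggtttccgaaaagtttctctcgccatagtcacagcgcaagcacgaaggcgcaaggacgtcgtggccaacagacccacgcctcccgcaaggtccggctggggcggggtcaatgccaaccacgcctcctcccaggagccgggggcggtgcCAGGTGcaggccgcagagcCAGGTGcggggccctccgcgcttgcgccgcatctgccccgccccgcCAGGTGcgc

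The Plaur window holds 1 TGANTCA match, which ends 63 bases before the start. The Spint2 window holds 3 CAGGTG matches, ending 69, 50 and 4 bases before the start, and none of TGANTCA. The Spint1 window has neither motif, and neither does that of Serpine2. Of the Serpinb2 windows, which belong to 2 overlapping starts, both hold the same TGANTCA match. That match has A at N and so is not the AP-1 core, while the Plaur match has C at N. Of all 32817 mouse windows of this length, 6.75% hold TGANTCA with any base at N, and 17.2% hold CAGGTG. These matches describe the letters in the window, and binding was not measured.

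In the KPC model, matriptase and urokinase RNA stood on one side of the comparison and the Kunitz inhibitor Spint1 and the urokinase receptor on the other. Of the 9 genes, 5 passed the authors' Wald test at an adjusted p under 0.05, 2 with a positive and 3 with a negative value. Over all 20050 genes tested in this table, 10.4% were called, 5.77% positive and 4.60% negative. Of these 5, all but Plaur also exceeded 1 in absolute log2 fold change, and 6.50% of all tested genes met both criteria. The median log2 fold change of the 9 genes was -1.14, beside -0.08 for all genes tested, and is the value of Serpinb2, a gene of low count that was not called. In this table genes of low count lie mostly on the negative side, and with the running median over genes of like level (the level trend) subtracted the median of the 9 genes was -0.10, beside 0.00 for all genes tested. The remaining genes of the set, Plat, Serpinb2, Prss8 and Spint2, did not pass.

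**Figure D1:**
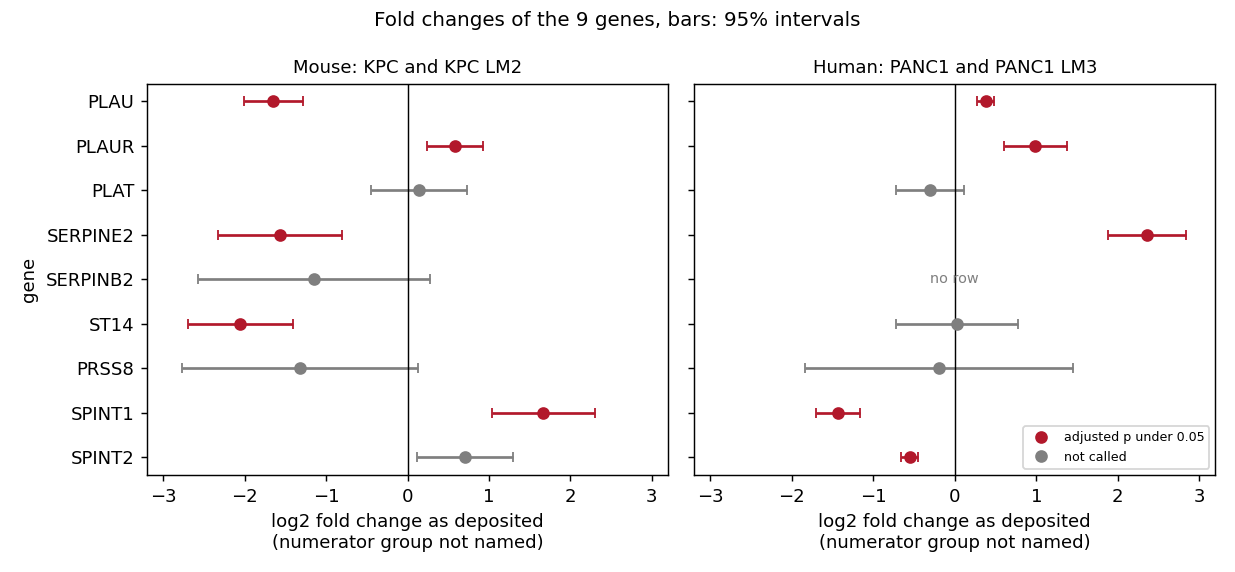
Log2 fold change of each of the 9 genes (x axis, as deposited) in the mouse table (left) and the human table (right), with 95% intervals from the listed standard errors, red where the adjusted p is under 0.05. PLAU, SERPINE2 and SPINT1 are called in both panels, each on opposite sides of 0, while PLAUR is positive in both.

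Plau, which encodes urokinase, had the smallest adjusted p of the 9 genes in the KPC model. The authors' deposited table listed it at -1.65 ± 0.19 (standard error, SE) on the log2 scale, a 3.13-fold difference, with a mean count of 417 over libraries and a Wald test adjusted p of 7.08e-16. Its receptor gene Plaur went the other way. In the authors' deposited table Plaur was at 0.58 ± 0.18, a 1.50-fold difference, with a mean count of 938 and a Wald test adjusted p of 0.017. That call depended on the scaling of libraries. With fold changes recentred on the 9769 genes whose mean count is at least 64, a shift of 0.22, Plaur was at 0.37 with an adjusted p of 0.15, and after the level trend was subtracted its value was 0.33 with an adjusted p of 0.34.

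The value of the enzyme minus that of its receptor was -2.23 on the log2 scale. Since both values come from the same libraries, the SE of this gap depends on a correlation that the tables do not give, but it cannot exceed the sum of both listed errors, 0.36. The gap itself does not move when all genes are shifted together. Plat, the other plasminogen activator gene, was listed in the authors' deposited table at 0.14 ± 0.30 with a mean count of 1238 and a Wald test adjusted p of 0.77. Its 95% interval ran from -0.44 to 0.73, and its sign turned to -0.08 on recentring and to -0.10 with the level trend removed. A difference of Plat as large as that of Plau lies outside this interval.

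Serpine2, which encodes protease nexin 1, an inhibitor of urokinase, tissue activator and thrombin, moved to the same side as Plau. The authors' deposited table for KPC listed Serpine2 at -1.57 ± 0.39, a 2.97-fold difference, with a mean count of 61.2 and a Wald test adjusted p of 0.0020. The gap between Plau and Serpine2 was -0.08 with an SE of at most 0.57. Serpinb2, the gene of plasminogen activator inhibitor 2, was also listed on the negative side, at -1.14 ± 0.73 with a mean count of 16.9, and did not pass the Wald test (adjusted p = 0.29) in the authors' deposited table. At that level most genes of this table are negative. Among the 4139 tested genes with a mean count from 8 to below 30, 78.8% were negative with a median of -0.96, and 10.8% were called negative. With this trend subtracted Serpinb2 was at -0.28, while Serpine2 was at -1.70 and stayed called.

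St14, the gene of matriptase, had the largest fold change of the 9 genes in KPC. It was listed in the authors' deposited table at -2.05 ± 0.33, a 4.15-fold difference, with a mean count of 68.2 and a Wald test adjusted p of 7.28e-08. Among the 2521 tested genes from 30 to below 100, where both St14 and Serpine2 lie, the median was 0.07, 44.4% were negative, and 7.02% were called negative. Prss8 encodes prostasin, a membrane-anchored protease that matriptase can activate. The authors' deposited table had Prss8 at -1.32 ± 0.74 with a mean count of only 9.48, and it did not pass (Wald test adjusted p = 0.22). Its value was -0.02 once the level trend was subtracted, which is the value of typical genes at its level. In GENCODE M21 Prss8 overlaps Kat8 on the other strand, and St14 overlaps the processed pseudogene Gm16071 on the other strand. Serpinb2 overlaps Serpinb10 on the same strand. The labels do not state that counting used strand.

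Spint1, which encodes the hepatocyte growth factor activator inhibitor that binds matriptase at the cell surface, stood opposite to St14. The authors' deposited table listed Spint1 at 1.67 ± 0.32, a 3.18-fold difference, with a mean count of 123 and a Wald test adjusted p of 2.01e-05. The gap between St14 and Spint1 was -3.72 with an SE of at most 0.65, and it was the widest of the 9 gene pairs compared in this table. Spint2, the gene of the second inhibitor, was at 0.71 ± 0.30 with a mean count of 474 and an interval from 0.12 to 1.30, and did not pass over all genes (Wald test adjusted p = 0.10) in the authors' deposited table. Spint1 stayed called at 1.45 both with recentring and with the level trend removed, and Spint2 was called in neither setting.

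**Figure D2:**
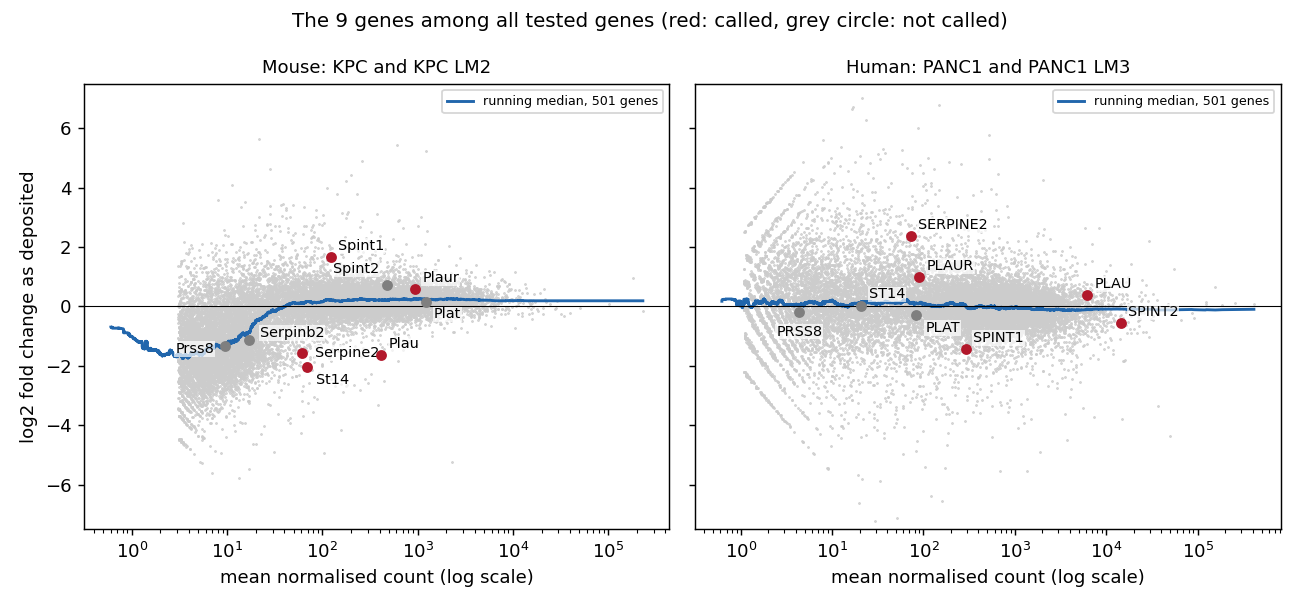
Log2 fold change (y axis, as deposited) against mean count (x axis, log scale) for all tested genes (light grey) and the 9 genes (red where called), with the running median over genes of neighbouring level in blue; genes beyond the y axis are not drawn. In the mouse panel Prss8 lies on the falling part of the blue line and Serpinb2 close to it, while Plau, St14 and Serpine2 lie below the line and Spint1 above it.

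The mouse levels can be set side by side only after division by exonic length, here from GENCODE M21. Per kilobase of exon, the mean count was 359 for Plaur, 198 for Plat, 176 for Plau, 104 for Spint2 and 44.3 for Spint1. St14 (8.94), Serpine2 (7.38), Serpinb2 (7.18) and Prss8 (5.12) were lower by this measure. The tables hold no spread of levels over libraries, so neighbours in this order cannot be told apart or called different.

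In the PANC1 model urokinase, its receptor and protease nexin 1 stood on one side and both Kunitz inhibitors on the other. Of the 8 genes listed, 5 passed the authors' Wald test, 3 positive and 2 negative. The background in this table is high, with 52.5% of 17838 genes called, 26.0% positive and 26.5% negative, so a count of 5 called in 8 is near what genes in general gave. The listed SE had a median of 0.136 over all tested genes, beside 0.384 in KPC, and ran from 0.05 to 0.84 over the 8 genes. Only SERPINE2 and SPINT1 passed with an absolute log2 fold change over 1, which 15.5% of all tested genes did. The median of the 8 genes was -0.08, beside -0.00 for all genes tested.

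SERPINE2 had the largest fold change of these genes in PANC1. The authors' deposited table listed SERPINE2 at 2.36 ± 0.24, a 5.14-fold difference, with a mean count of 73.3 and a Wald test adjusted p of 2.81e-21. PLAUR was at 0.99 ± 0.20, a 1.98-fold difference, with a mean count of 90.0 and a Wald test adjusted p of 1.71e-06 in the authors' deposited table. PLAU, with a mean count of 6165, was at 0.38 ± 0.05 in the authors' deposited table, a 1.30-fold difference with a Wald test adjusted p of 2.88e-11. The 3 genes of the urokinase axis thus shared a sign but not a size. The gap between PLAU and SERPINE2 was -1.98 with an SE of at most 0.30. PLAU and PLAUR were 0.61 apart, with an SE of at most 0.25. PLAT was not called in the authors' deposited table, at -0.30 ± 0.21 with a mean count of 83.5 and a Wald test adjusted p of 0.23.

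Both Kunitz inhibitor genes were negative in PANC1. In the authors' deposited table SPINT1 was at -1.43 ± 0.14, a 2.69-fold difference, with a mean count of 292 and a Wald test adjusted p of 4.10e-24. SPINT2, which had the highest mean count of the 8 genes (14324), was at -0.55 ± 0.05, a 1.47-fold difference, with a Wald test adjusted p of 5.86e-25 in the authors' deposited table. Their target proteases had the lowest mean counts of the 8 genes. ST14 was listed in the authors' deposited table at 0.03 ± 0.38 with a mean count of 21.0 (Wald test adjusted p = 0.96), and PRSS8 at -0.19 ± 0.84 with 4.38 (Wald test adjusted p = 0.87). The interval of ST14 ran from -0.72 to 0.77 and that of PRSS8 from -1.84 to 1.45, so a difference of ST14 as large as the one in KPC lies outside the human interval, while for PRSS8 this depth leaves a wide range. The sign of ST14 turned to -0.13 when the level trend was subtracted.

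Keratin and cadherin genes of the carcinoma epithelium moved to the same side as SPINT1 and SPINT2 in PANC1. Of 6 epithelial markers, 4 were called negative and 1 positive, beside 26.5% and 26.0% of all genes tested. The authors' deposited table listed KRT8 at -4.35 ± 0.06, KRT19 at -3.79 ± 0.05, KRT18 at -3.35 ± 0.05 and CDH1 at -3.92 ± 0.10, each with an adjusted p listed as 0, against EPCAM at 0.97 ± 0.10. KRT7, the remaining marker, was at 0.09 ± 0.26 and was not called in the authors' deposited table. In KPC, 1 of the same 6 markers was called positive (Krt7, 1.18 ± 0.18) and 1 negative (Epcam, -1.14 ± 0.28) in the authors' deposited table. The part of these epithelial differences in the values of the protease and inhibitor genes was not tested.

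Host cells of the liver can also express members of this system, and in such tumour samples fewer cells of a type and less RNA per cell cannot be told apart. Defining markers of those cells were low in KPC. There, the mean counts of the 5 hepatocyte markers listed ran from 3.51 to 26.7, those of 7 leukocyte markers from 1.56 to 33.1, those of 7 fibroblast markers from 5.55 to 41.4, those of 6 endothelial markers from 6.18 to 28.5 and those of 5 neutrophil markers from 1.73 to 7.58. None of the 30 reached 64. Their differences lay mostly on the negative side, as did those of low-count genes in general. Of the 26 tested, 23 were negative with 2 of them called, and 3 were positive with none called, at a median of -1.32. Among all tested KPC genes with a mean count from 8 to below 30, 78.8% were negative with a median of -0.96, and 10.8% were called negative. All 7 fibroblast markers were negative, Col1a1 being called at -1.84 ± 0.63, and so were 4 of 5 tested leukocyte markers, Adgre1 being called at -2.88 ± 0.75, in the authors' deposited table. With the level trend subtracted the median of the 26 was -0.47 and neither call held (adjusted p = 0.26 for Col1a1 and 0.14 for Adgre1). In PANC1, where reads were set against human genes per the submitters' processing notes, 2 of 7 hepatocyte markers had a row, at 5.89 and 7.56. The PANC1 cells are human themselves, so human reads on such genes cannot be assigned to host cells. Of the other marker genes, CD68 (1103), COL3A1 (405) and COL1A1 (173) exceeded 64 in the authors' deposited table, where PTPRC (2.26), CSF1R (8.85) and COL1A2 (1.56) were low. CD68 (1.91 ± 0.07) and COL3A1 (1.05 ± 0.11) were called there on the side of PLAU and SERPINE2, and CDH5 (-4.09 ± 0.95) and S100A9 (-3.42 ± 1.51), with mean counts of 9.89 and 2.30, on the side of SPINT1. The part of these marker differences in the values of the protease and inhibitor genes was not tested. The carcinoma epithelial markers lay between 524 and 28158 in KPC and between 45.4 and 49702 in PANC1.

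If each table's mean is over its 3 and 3 libraries, the mean and the fold change together imply a level for each group. For KPC St14 this gives normalised counts of 26.5 in the numerator group and 110 in the other, while Spint1 goes from 186 in the numerator group to 58.7 in the other. Plau goes from 202 to 632 and Plaur from 1126 to 751 in the same order. For PANC1, SERPINE2 goes from 123 in the numerator group to 23.9 in the other, and SPINT1 from 158 to 426. PLAU goes from 6972 to 5359 in PANC1. The lowest level implied for a called member was that of SERPINE2 in PANC1, 23.9, so none of these fold changes rests on a group at 0.

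**Figure D3:**
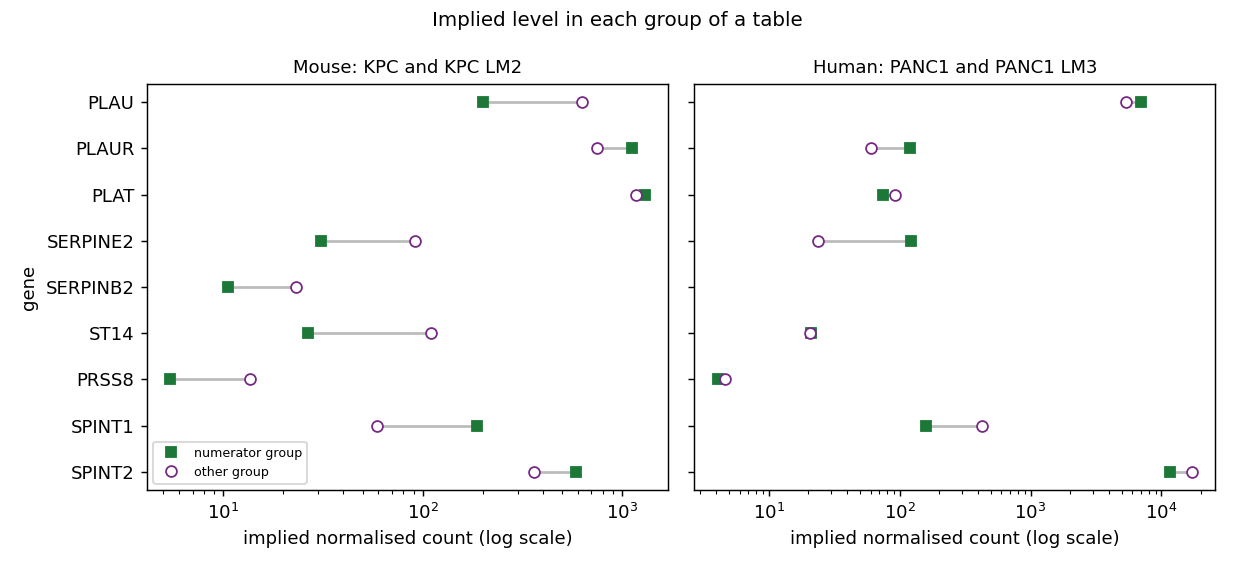
Normalised count implied for the numerator group (green squares) and the other group (open purple circles) of each table (x axis, log scale) for the 9 genes, from the listed mean and fold change, with no error shown. In the mouse panel the squares of PLAU, SERPINE2 and ST14 lie left of the circles and those of SPINT1 and PLAUR right of them; in the human panel PLAUR and SERPINE2 have the square to the right and SPINT1 and SPINT2 to the left.

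Set against each other, the models shared some relations between genes and differed in others. Relations within a table do not depend on which group is the numerator. Of the 4 genes called in both tables, PLAU, PLAUR, SERPINE2 and SPINT1, 1 had the same listed sign and 3 had opposite signs. Of all 972 genes called in both tables, 57.2% had opposite signs, so this count is near that of genes in general. Among their 6 pairs, 3 had the same relation in both tables. That count follows from the split of signs, 1 same and 3 opposite, and adds nothing to it. PLAU and SERPINE2 shared a sign in both models, and SPINT1 was opposite to each of them in both. The receptor gene PLAUR accounted for the 3 pairs that differed: in KPC it was opposite to PLAU and SERPINE2 and on the side of SPINT1, and in PANC1 it was with PLAU and SERPINE2 and opposite to SPINT1. As the KPC call of Plaur was lost after recentring, the pairs with Plaur rest on a called value in KPC only on the scale as deposited.

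Whether the size of a difference was unequal between models can be asked without knowing the numerators, by testing both the difference and the sum of the 2 log2 fold changes over their combined SE. Among 12777 genes tested in both tables, 13.4% passed both z tests at a Benjamini-Hochberg adjusted p under 0.05, and PLAU and ST14 did so among the 8 members in both tables. For PLAU the difference between the KPC and the PANC1 value was -2.03 and the sum -1.27, with a combined SE of 0.19 (adjusted p = 3.60e-23 and 2.56e-09). For ST14 they were -2.08 and -2.03, with a combined SE of 0.50 (adjusted p = 0.00027 and 0.00049). Both genes therefore differed more between the groups of KPC than between those of PANC1. For SERPINE2 and SPINT1 the sums were 0.79 ± 0.46 and 0.24 ± 0.35 and did not pass (adjusted p = 0.19 and 0.65), which does not show that the sizes are equal.

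Around these members, 63 other genes of pericellular proteolysis were listed in 8 roles. In KPC 54 of them were tested, of which 8 were called positive and 6 negative, beside the 10.4% of all genes, with a median log2 fold change of -0.36 beside -0.08 over all genes, or -0.02 beside 0.00 with the level trend subtracted. Of the 8 positive calls, 3 remained after recentring and 3 after the level trend was subtracted, and of the 6 negative calls 6 and 4 remained. In PANC1 53 were tested, of which 19 were positive and 13 negative, beside 26.0% and 26.5% of all genes. Their median was 0.22 beside -0.00 over all genes, or 0.20 beside -0.00 with the level trend subtracted.

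**Figure D4:**
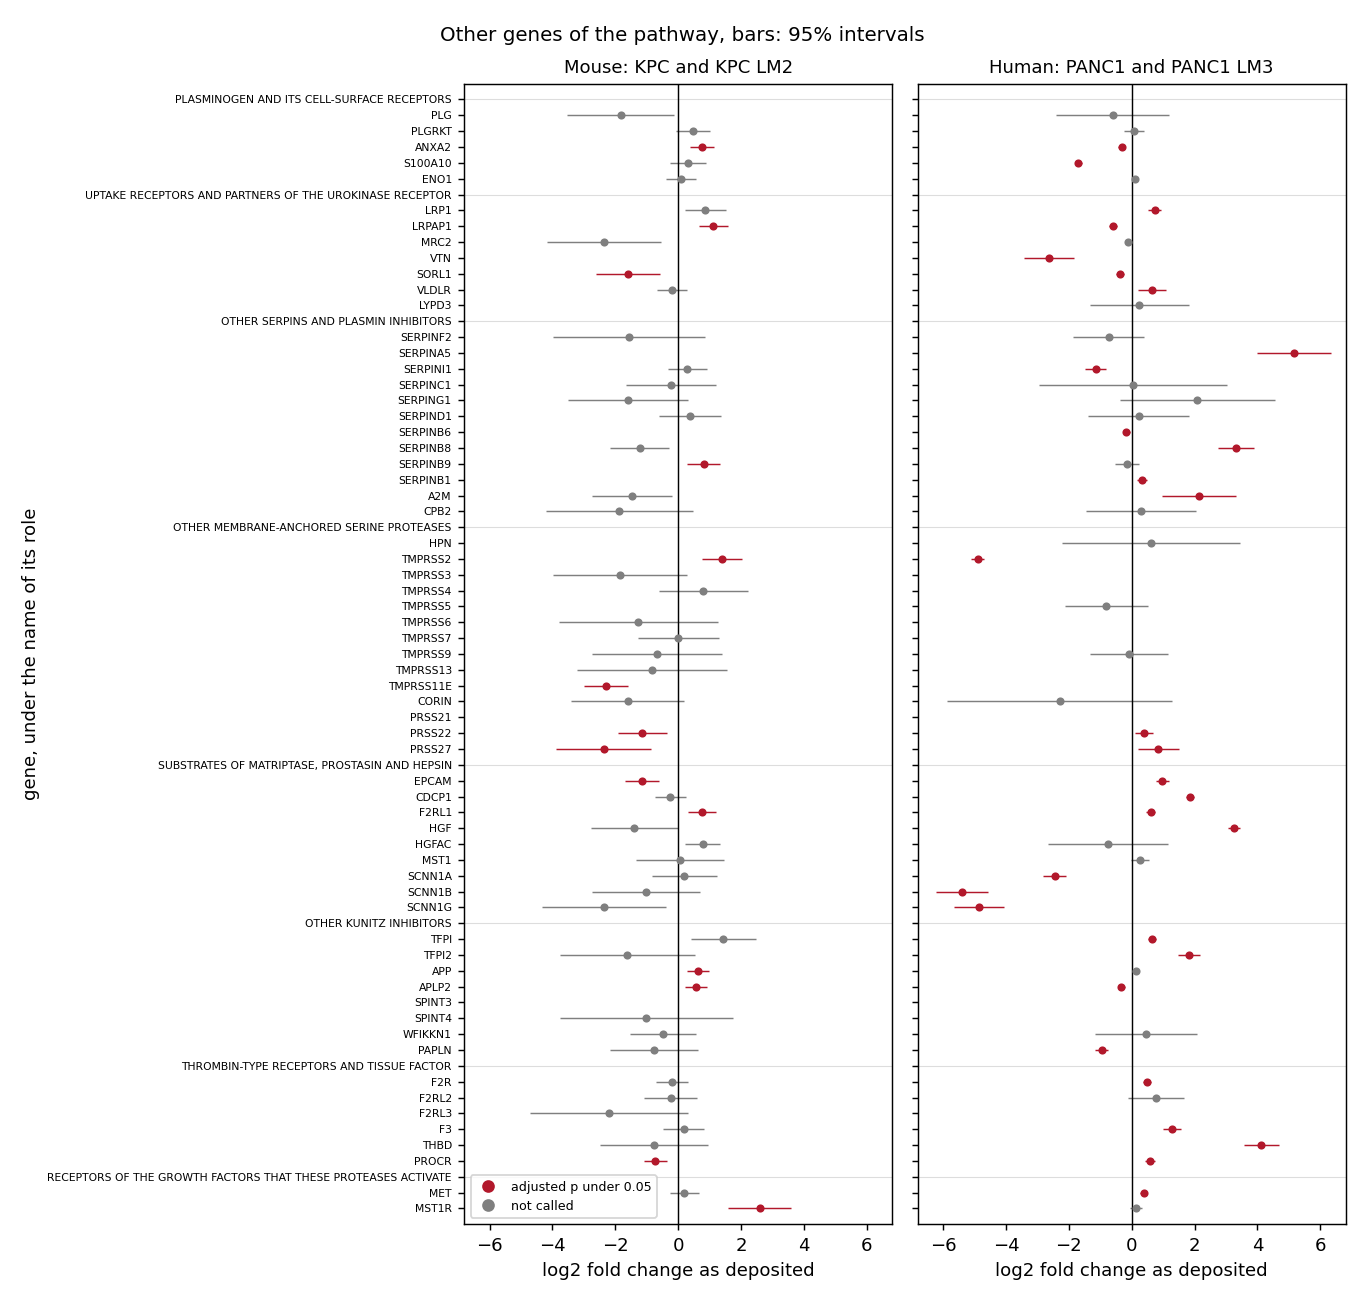
Log2 fold changes (x axis, as deposited) with 95% intervals of the other genes of the pathway by role, red where the adjusted p is under 0.05, for genes with an adjusted p. The human panel shows SCNN1A, SCNN1B, SCNN1G and TMPRSS2 far to the left and SERPINA5, THBD, SERPINB8 and HGF far to the right, and in the mouse panel Mst1r is the most positive and Prss27 and Tmprss11e are the most negative of the called genes.

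Among other membrane-anchored serine proteases, 1 of 11 tested in KPC was called positive and 3 negative, beside 5.77% and 4.60% of all genes. Tmprss11e, which encodes a type II transmembrane serine protease of the HAT/DESC subfamily, was at -2.29 ± 0.35 in the authors' deposited table for KPC (Wald test adjusted p = 2.27e-08), close to the value of St14. For genes of trypsin-like proteases, the authors' deposited table gave Prss27 as -2.37 ± 0.77 and Prss22 as -1.14 ± 0.40, from mean counts of 9.76 and 43.5. The call of Prss27 was lost when the level trend was subtracted (adjusted p = 0.52). Tmprss2, another transmembrane serine protease gene, was on the other side at 1.39 ± 0.33, and Tmprss4 was at 0.79 ± 0.72 and was not called in the authors' deposited table. In PANC1, TMPRSS2 was at -4.89 ± 0.11 with a mean count of 1890 and an adjusted p listed as 0 in the authors' deposited table. PRSS22 (0.38 ± 0.14) and PRSS27 (0.85 ± 0.34) were called positive in the authors' deposited table for PANC1, and TMPRSS5 was not called at -0.81 ± 0.67. The PANC1 call of PRSS27 was lost when the level trend was subtracted (adjusted p = 0.054). TMPRSS2 was thus on the side of SPINT1 in both models, as deposited, after recentring and after the level trend was subtracted. Any gene with opposite listed signs keeps one relation to SPINT1 in both models. Of the 972 genes called in both tables, 57.2% had opposite signs. Among genes called in both, this share was 52.0% after recentring and 48.6% with the level trend subtracted.

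Of 9 substrates of these proteases, 4 were called positive and 3 negative in PANC1, where 26.0% and 26.5% of all genes were. HGF, the gene of hepatocyte growth factor, was at 3.26 ± 0.10 with a mean count of 615 in the authors' deposited table. CDCP1, whose product is a transmembrane protein cleaved by plasmin and matriptase, was listed at 1.85 ± 0.06 in the authors' deposited table. The subunit genes of the epithelial sodium channel, which prostasin activates, were on the other side. SCNN1A was at -2.44 ± 0.19, SCNN1B at -5.40 ± 0.43 and SCNN1G at -4.86 ± 0.41 in the authors' deposited table for PANC1, and MST1, the gene of macrophage-stimulating protein, was at 0.26 ± 0.15 and not called. In KPC, against 10.4% of all genes called, 1 of 9 was positive, F2rl1, which encodes protease-activated receptor 2 (0.76 ± 0.22), and 1 negative, Epcam (-1.14 ± 0.28), with Cdcp1 not called at -0.25 ± 0.25, all in the authors' deposited table. The F2rl1 call was lost after recentring (adjusted p = 0.093).

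The receptors of the growth factors that this system activates were listed as MET and MST1R. Mst1r, the receptor of macrophage-stimulating protein, was at 2.59 ± 0.52 in the authors' deposited table for KPC (Wald test adjusted p = 4.43e-05) and Met at 0.19 ± 0.23, not called. In PANC1 MET was called at 0.38 ± 0.06 and MST1R was not, at 0.14 ± 0.10, in the authors' deposited table.

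Plasminogen RNA was low in both models, at mean counts of 7.17 for Plg and 4.06 for PLG, and was not called in either. Reads of PANC1 were set against human genes, so plasminogen RNA of a host of another species would be counted there only where its reads aligned to human sequence. In KPC the hepatocyte marker Alb was low as well, at 10.4. The cell-surface receptor subunits of plasminogen, annexin A2 and S100A10, were abundant. In the authors' deposited tables Anxa2 was at 0.75 ± 0.20 in KPC and ANXA2 at -0.31 ± 0.06 in PANC1, both called. S100a10 was at 0.32 ± 0.29 in KPC and not called, and S100A10 at -1.70 ± 0.05 in PANC1 with a Wald test adjusted p of 1.84e-229 in the authors' deposited tables. ENO1, whose product alpha-enolase binds plasminogen at the cell surface, was at 0.09 ± 0.05 in PANC1 and was not called in the authors' deposited table. The Anxa2 call in KPC was lost after recentring (adjusted p = 0.058).

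Endocytic receptors of the protease and serpin complexes went in several directions. Lrpap1, which encodes the chaperone of LRP1, was at 1.11 ± 0.24 in KPC, and Sorl1 at -1.60 ± 0.51, in the authors' deposited table. The Sorl1 call was lost when the level trend was subtracted (adjusted p = 0.083). The uptake receptor Lrp1 itself was at 0.86 ± 0.33 and did not pass in the authors' deposited table for KPC (Wald test adjusted p = 0.075). In PANC1 the authors' deposited table listed LRP1 at 0.74 ± 0.10 and VLDLR at 0.65 ± 0.23, against LRPAP1 at -0.59 ± 0.07 and SORL1 at -0.37 ± 0.06. VLDLR was no longer called with the level trend subtracted (0.49, adjusted p = 0.062). VTN, the gene of vitronectin, to which the urokinase receptor binds, was at -2.64 ± 0.41 with a mean count of 28.9, and MRC2 was not called at -0.11 ± 0.06, in the authors' deposited table for PANC1.

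Of other serpins and plasmin inhibitors, 1 of 9 was called in KPC and 6 of 12 in PANC1, shares near the 10.4% and 52.5% of all genes. The KPC call was Serpinb9, a granzyme B inhibitor gene, at 0.80 ± 0.27 in the authors' deposited table, which was not called after recentring (adjusted p = 0.14), and Serpini1 was not called at 0.28 ± 0.32. In PANC1 SERPINA5, the gene of protein C inhibitor, which also inhibits urokinase, was at 5.16 ± 0.60 with a mean count of 37.6 in the authors' deposited table. SERPINB8 was at 3.31 ± 0.29 and SERPINB1 at 0.32 ± 0.08, while SERPINI1, the gene of the tissue activator inhibitor neuroserpin, was at -1.15 ± 0.17 in the authors' deposited table for PANC1. SERPINB6 was at -0.17 ± 0.06, a call lost after recentring (adjusted p = 0.053), and SERPINB9 was not called at -0.14 ± 0.20 in the authors' deposited table for PANC1.

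Other Kunitz inhibitors did not share the sign of SPINT1 and SPINT2 in PANC1 as a group. TFPI2, which inhibits plasmin, was at 1.83 ± 0.18 and TFPI at 0.64 ± 0.07, while PAPLN was at -0.96 ± 0.11 and APLP2 at -0.32 ± 0.05, in the authors' deposited table for PANC1, where APP was not called at 0.12 ± 0.06. In KPC App was at 0.61 ± 0.18 and Aplp2 at 0.57 ± 0.17 in the authors' deposited table, neither of them called after recentring (adjusted p = 0.13 and 0.17), and Tfpi was at 1.43 ± 0.53 and not called. Receptors and cofactors of coagulation proteases were called positive in 4 of 5 tested in PANC1, beside 26.0% of all genes. THBD, the gene of thrombomodulin, was at 4.12 ± 0.28, the tissue factor gene F3 at 1.29 ± 0.14 and PROCR, the protein C receptor gene, at 0.59 ± 0.08 in the authors' deposited table, with F2RL2 not called at 0.78 ± 0.46. In KPC Procr was the one call of 6, at -0.74 ± 0.19, and F2r was not called at -0.20 ± 0.26, in the authors' deposited table. PROCR thus shared the sign of PLAU and SERPINE2 in both models. Its listed signs were opposite in the 2 tables, as were those of 57.2% of the 972 genes called in both.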

How the data were processed

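Liver tumour RNA of 12 samples in 4 groups of 3 was sequenced from TruSeq libraries, per the labels' protocols. Per the submitters' processing notes, the authors used STAR 2.7.6a, featureCounts 2.0.0, MultiQC 1.9 and DESeq2 1.24 with builds mm39 and hg19; settings and annotation are not given in the sources used here. Whether the replicates came from separate animals is not stated, so p-values measure the spread between these samples, which may be technical.

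The deposited mean count is a signal, read as counts divided by size factors and averaged over libraries. The log2 fold change and its SE were deposited on the log2 scale. The deposited score, the Wald statistic, equalled their ratio within 9.2e-08. The deposited p-values equalled its two-sided normal p within 5.0e-08, and the adjusted ones a Benjamini-Hochberg adjustment within 2.5e-06. An adjusted p was listed for 20050 KPC and 17838 PANC1 genes. No value per library was held, so no count test was run, and calls are the authors' at an adjusted p under 0.05. Intervals are 1.96 SE to each side.

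Members, lists and tests were chosen with earlier results of these data known. Named genes were the members and, per role and model, up to 3 called genes per direction with the smallest adjusted p, plus the most abundant gene not called. Symbols were matched in capitals. The alternatives tried were a threshold of 0.01, a minimum of 1 for the absolute log2 fold change, Benjamini-Hochberg adjustment without the filter on low counts, restriction to genes with a mean count of at least 64, recentring on those genes, removal of a running median over genes ordered by mean count (the level trend), Bonferroni adjustment, and a t reference with 4 degrees of freedom. On simulated data, the calls recovered 74% of genes moved by a log2 of 1 and 98% of genes moved by 2 among 20050 KPC genes. Among 17838 PANC1 genes they recovered 99% and 100%. Moved genes had a mean count of at least 64. The simulated noise was normal with the listed SE, so these shares follow from the listed errors. They cannot show that those errors or the normal reference hold for 3 libraries per group. Calculations ran in Python 3.11.15 with scipy 1.17.1, pandas 2.3.3 and numpy 2.4.6, and plots in matplotlib 3.10.9.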

Additional observations from a re-analysis of the deposited data

Results flagged for a closer look

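PLAU and ST14 had an unequal size of difference in the 2 models whichever group is the numerator. This rests on z tests of both the difference and the sum of their log2 fold changes, with a normal reference. The size test was not run with the t distribution with 4 degrees of freedom. Under that distribution neither gene was called in KPC (t test adjusted p = 0.43 for each). Plau was at -1.65 ± 0.19 (SE) in the authors' deposited table for KPC and PLAU at 0.38 ± 0.05 in that for PANC1. St14 was at -2.05 ± 0.33 in the authors' deposited table for KPC and ST14 at 0.03 ± 0.38, with a mean count of 21.0, in that for PANC1. The models differ in species, line and number of selection rounds, and these cannot be told apart.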

How the results depend on the processing

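Of the 5 members called in KPC, Plau, St14 and Spint1 stayed called under every alternative except the t distribution with 4 degrees of freedom, under which 0 members and 0 genes of the pathway list passed, as did 0 of all 20050 KPC genes, while 2132 had an unadjusted p under 0.05. The 5 members called in PANC1 stayed called under all alternatives but a minimum absolute log2 fold change of 1, which left 2. With Bonferroni adjustment 3 KPC members passed, without Plaur and Serpine2. The KPC pathway list went from 14 calls to 7 at an adjusted p of 0.01, 8 with a log2 fold change over 1, 7 after the level trend was subtracted and 2 with Bonferroni adjustment, and the PANC1 list from 32 to 15 with a log2 fold change over 1. PLAT in KPC turned from 0.14 to -0.077 after recentring and to -0.10 after the trend was subtracted. ST14 in PANC1 turned from 0.03 to -0.13 after the trend was subtracted. The amounts subtracted, 0.22 and 0.24 for PLAT and 0.16 for ST14, were larger than the deposited values. Those values were smaller than their SE, 0.30 for PLAT and 0.38 for ST14. The share of positive calls among all KPC genes was 55.7% as deposited and 23.5% after recentring. With genes at 64 or more alone, 1 member, PLAU, differed in size between models, since ST14 is below 64 in PANC1. After recentring PLAUR joined PLAU and ST14. The test of size between models was not run with the t distribution or with Bonferroni adjustment. No paired analysis was possible because the tables hold no value per library, and for the same reason leaving out each replicate and other count tools were not run.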
